A study of Mus musculus with 16 samples.

Results

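The collagen genes of mouse quadriceps muscle are the 44 genes whose symbol has the form Col, a type number, a and a chain number, out of 45706 genes measured. They fall into 11 fibrillar genes, 6 basement membrane genes (Col4a), 6 beaded filament genes (Col6a) and 21 others. Polyadenylated RNA was sequenced from 8 KO libraries, from animals with a knockout of Nampt restricted to skeletal muscle, and from 8 WT libraries, from wild-type animals. Every library came from the quadriceps. NAMPT makes nicotinamide mononucleotide and thereby limits the salvage route to NAD, and the title of the study asks whether NAD loss in muscle speeds ageing of the muscle. The labels give neither the driver of the muscle-specific deletion nor the age, sex or number of animals, and p-values therefore speak of the spread among the 16 samples only.

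Collagens are secreted proteins whose chains wind into triple helices. Fibrillar collagens, chiefly types I, III and V in muscle, assemble into the fibres of the endomysium, perimysium and tendon. Type IV collagen forms the sheet-like network of the basement membrane around each muscle fibre and capillary, and type VI collagen forms beaded microfibrils that lie next to it. Connective tissue of muscle is made largely by fibroblast-like cells rather than by the muscle fibres in which Nampt was deleted, and growth of this tissue is a known feature of aged and dystrophic muscle.

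Promoter windows of 3 collagen genes are shown because they stand for the classes with the highest levels and differ in layout. They are the type I chain gene Col1a2, the type III gene Col3a1, and Col4a2, whose window also holds the annotated start of Col4a1. Each is the RefSeq window from 250 bases before to 50 bases after the gene's start, on GRCm38.p6 and the plus strand. Capitals mark every match, on either strand, of the letters CCAAT, known as the CCAAT box, of GGGCGG, the GC box, and of TATAAA, the TATA box. The motifs do not overlap each other in these windows. The Col1a2 window is chr6:4505368-4505667, inside the GENCODE gene, which begins further upstream. The Col3a1 window is chr1:45311288-45311587 and the Col4a2 window is chr8:11312555-11312854.
Col1a2: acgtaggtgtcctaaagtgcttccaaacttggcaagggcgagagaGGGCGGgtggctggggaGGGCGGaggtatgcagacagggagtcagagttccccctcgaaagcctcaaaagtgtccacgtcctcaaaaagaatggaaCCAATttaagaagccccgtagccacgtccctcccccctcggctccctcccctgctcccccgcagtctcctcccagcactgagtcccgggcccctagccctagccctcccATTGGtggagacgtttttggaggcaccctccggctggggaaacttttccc
Col3a1: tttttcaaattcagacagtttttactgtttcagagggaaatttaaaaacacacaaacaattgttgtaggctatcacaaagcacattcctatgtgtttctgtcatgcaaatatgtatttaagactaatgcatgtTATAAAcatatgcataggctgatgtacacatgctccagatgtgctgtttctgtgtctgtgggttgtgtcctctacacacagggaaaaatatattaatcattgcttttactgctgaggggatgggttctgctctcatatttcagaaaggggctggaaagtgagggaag
Col4a2: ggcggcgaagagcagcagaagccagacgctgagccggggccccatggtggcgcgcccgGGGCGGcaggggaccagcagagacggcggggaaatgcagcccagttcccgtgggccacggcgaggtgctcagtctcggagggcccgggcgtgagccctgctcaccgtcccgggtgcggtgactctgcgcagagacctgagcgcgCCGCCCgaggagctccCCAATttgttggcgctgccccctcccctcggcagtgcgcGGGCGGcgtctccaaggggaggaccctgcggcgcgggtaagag
The Col1a2 window held 2 CCAAT boxes and 2 GC boxes, the Col3a1 window 1 TATA box, and the Col4a2 window 1 CCAAT box and 3 GC boxes. The RefSeq table held 38 windows for 35 of the 44 genes. The CCAAT box was present in 13 of these 38 windows, against 37.4% of all 32851 windows in the table. The GC box was present in 23 of the 38, against 35.7% of all windows, and the TATA box in 5 of the 38, against 13.6%. These matches are letters in a window and are not known binding sites.

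Several basement membrane genes lie head to head. On chromosome 8 the annotated starts of Col4a1 (11198423 to 11312826, minus strand) and Col4a2 (11312805 to 11449287, plus strand) are 21 bases apart, and the genes share 22 exon bases on opposite strands. The starts of Col4a3 and Col4a4 are 72 bases apart on chromosome 1, and those of Col4a5 and Col4a6 are 1309 bases apart on the X chromosome. Col6a1 and Col6a2 lie on the same strand of chromosome 10, with starts 102538 bases apart. Col1a1 lies on chromosome 11 (94936224 to 94953042) and Col1a2 on chromosome 6 (4504814 to 4541544), both on the plus strand.

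Library totals ran from 16065394 to 51881258 estimated counts. Nampt itself was lower in every KO library, with 60.4 to 88.7 CPM in KO against 125.5 to 161.1 CPM in WT (edgeR quasi-likelihood, adjusted p = 9.68e-07). CPM is a gene's count relative to its library's total, scaled by the TMM method. Summed CPM of the RNAs Rn7s1, Rn7s2 and Rn7sk, which lack a poly(A) tail, was 282.7 to 501.6 in KO libraries 1, 3, 5 and 8, against 19.96 to 69.7 in the other 4 KO libraries and 15.4 to 216.1 in WT. Collagen results were therefore also computed without those 4 libraries. Their RNA integrity numbers overlapped those of the rest, with 8.4 to 8.8 in KO and 8.2 to 8.7 in WT overall. Genes that define skeletal muscle were at high levels in both genotypes. They include the fast-fibre myosin Myh4, with means of 70670 CPM in KO, against 74475 CPM in WT, and the muscle creatine kinase Ckm, with 17997 CPM in KO, against 18873 CPM in WT.

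Of the 44 collagen genes, 36 passed the filter on low counts and were tested. The other 8 were Col2a1, Col6a4, Col9a2, Col9a3, Col10a1, Col19a1, Col25a1 and Col26a1, which together held 0.111% of collagen counts. Col1a1, Col1a2 and Col3a1 held 46.4% of all collagen counts, and 64.4% came from these together with Col4a1 and Col4a2. Collagen genes as a whole took 0.128% to 0.273% of all counts in KO libraries and 0.121% to 0.235% in WT libraries, with means of 0.199% ± 0.0572 in KO, against 0.188% ± 0.0385 in WT (SD over 8 libraries each). KO libraries 2, 4 and 8, at 0.240%, 0.249% and 0.273%, lay above every WT library, and WT library 8 lay below every KO library. The remaining libraries of the genotypes overlapped.

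Levels of different genes were compared per kilobase of merged exon length. In that unit Col3a1 was highest, with 39.6 CPM per kb in KO and 36.2 in WT. Col1a1 came next with 37.3 in KO and 35.2 in WT, followed by Col4a1 with 27.1 and 26.0 and Col1a2 with 23.5 and 22.6. Col6a1 had 23.0 CPM per kb in KO and 22.5 in WT, and Col4a2 had 23.3 in KO and 21.3 in WT. Neighbours among these 6 genes differed by less than the larger of their SDs between libraries, so this measure does not resolve their order. Within each library some pairs kept 1 order. Col4a1 was above Col4a2 in every library, also with the longest transcript as length. Col1a1 was above Col1a2 in every library in this unit, but below it in every library with the longest transcript. The ratio of Col3a1 to Col1a1 fell on both sides of 1 in this unit. A step down followed these 6 genes, to Col6a2 at 11.9 CPM per kb in KO and 11.8 in WT, but this step depended on the length. Over all 16 libraries with the longest transcript as length, Col6a2 had 20.1 CPM per kb, next to Col4a2 with 22.9. Col1a2 moved from rank 4 to rank 2. The same 10 genes held the highest places when the longest transcript was used as length. The chains of the minor basement membrane networks were far lower, from 0.774 CPM per kb for Col4a5 in KO (0.705 in WT) to 0.103 for Col4a6 in KO (0.101 in WT).

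**Figure D1:**
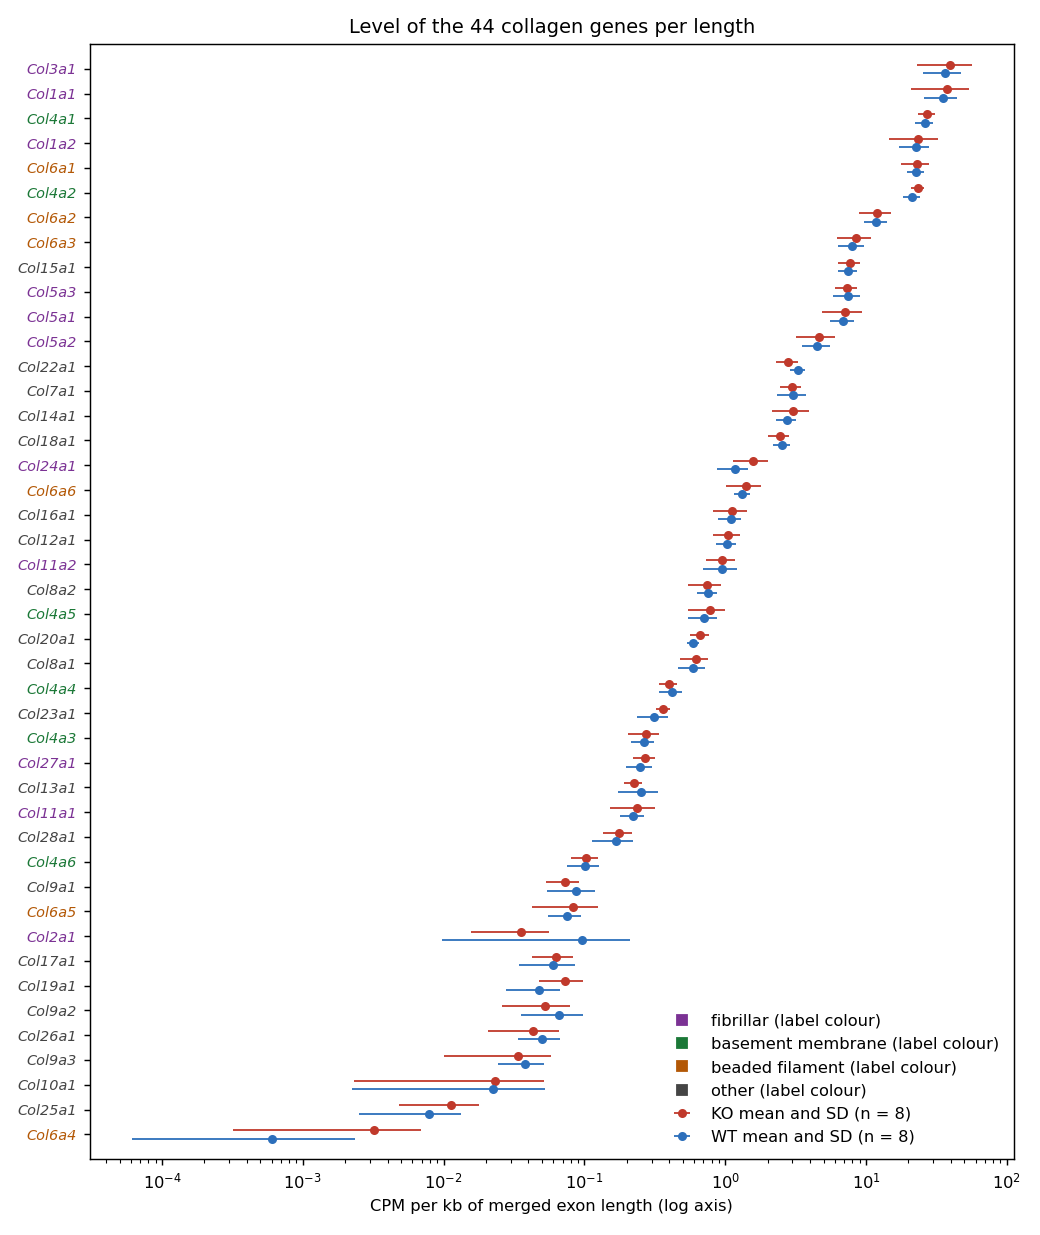
Level of each of the 44 collagen genes in CPM per kb of merged exon length on a log axis, as mean and SD over 8 KO libraries (upper, red) and 8 WT libraries (lower, blue). Lower bars are cut short where the SD comes close to the mean or exceeds it. The means of the genotypes lie close together for the tested genes and apart for some genes near 0, such as Col2a1 (0.0357 in KO, 0.0967 in WT).

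No collagen gene passed the test between KO and WT. An adjusted p under 0.05 was reached by 0 of the 36 tested collagens and by 0.0435% of the 13792 tested genes, which is 6 genes, with 0.0218% higher and 0.0218% lower in KO (edgeR quasi-likelihood test with Benjamini-Hochberg adjustment over all tested genes). An unadjusted p under 0.05 was reached by 2 of the 36, or 5.56%, against 9.57% of all tested genes. These were Col24a1, higher in KO, and Col22a1, lower in KO. In all 27 alternative fits 0 collagens passed. With DESeq2, which gave no adjusted p for 13 collagens, 0 passed, against 1.04% of genes with an adjusted p, and Col24a1 and Col22a1 had an unadjusted p under 0.05, as 9.3% of tested genes did. With limma 0 passed, against 0.0363% of genes, and the same 2 collagens had an unadjusted p under 0.05, against 9.7% of genes. None of the 36 collagens had KO libraries that lay all above or all below the WT libraries, as 0.123% of tested genes did.

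The intervals bound how far the collagens could differ. In 30 of 36 collagens, or 83.3%, the 95% interval excluded changes of 1.5-fold or more, up or down, against 86.2% of all tested genes. All 6 basement membrane genes, 7 of 10 tested fibrillar genes, 4 of 5 tested beaded filament genes and 13 of 15 tested others met this. The tested fibrillar genes that did not were Col3a1, Col1a1 and Col24a1, with upper limits of 1.57-fold, 1.51-fold and 1.74-fold. The median log2 fold change, KO over WT, was 0.07 for fibrillar, 0.06 for basement membrane, 0.09 for beaded filament and 0.04 for the other collagens, against 0.00 for all tested genes. The fold change was above 0 in 27 of 36 collagens, against 51.8% of all tested genes. Members vary together, so these signs are not independent of each other. Without KO library 8 the medians of the fibrillar, beaded filament and other collagens were -0.04, -0.02 and -0.02. The medians of the fibrillar and other collagens were below 0 also without KO library 4 or WT library 8, and that of the others without WT library 1.

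**Figure D2:**
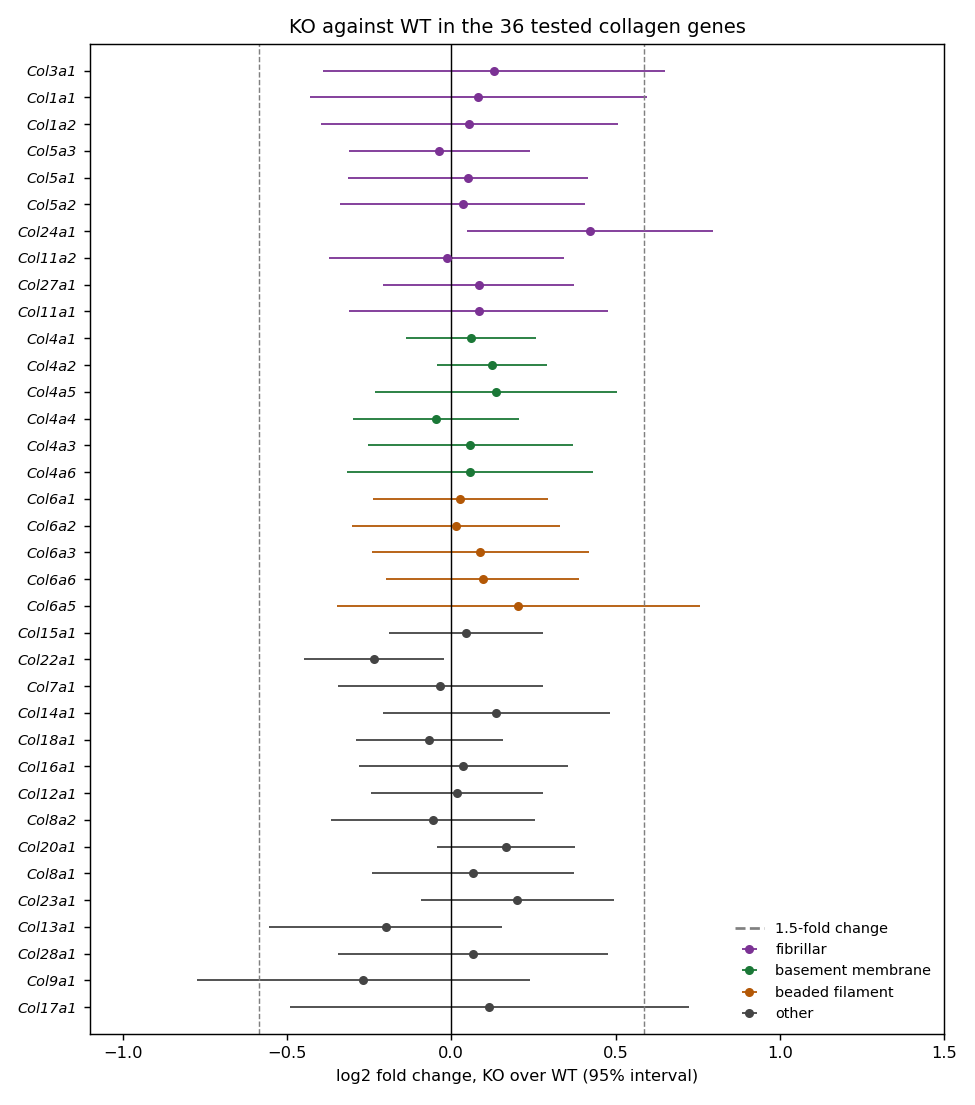
Log2 fold change of KO over WT with its 95% interval for the 36 tested collagens, ordered within class by level per length. Dashed lines mark a 1.5-fold rise and a 1.5-fold fall, and the intervals of all genes but Col24a1 and Col22a1 include 0.

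Among the tested fibrillar genes, the chains of types I and III varied most from library to library. Col1a1, which encodes the α1 chain of type I collagen, had 115.3 CPM in the lowest, 236.4 at the median and 419.0 in the highest KO library. In WT the corresponding values were 122.9, 239.8 and 297.0 CPM, and later triples of CPM give the lowest, median and highest library in the same way. Its medians were nearly equal, and the KO libraries reached further both up and down. Its estimate was 0.08 ± 0.24 on the log2 scale (fitted log2 fold change, KO over WT, ± its standard error, as throughout; 95% interval -0.43 to 0.59, adjusted p = 0.951). Col1a2, the α2 chain, had 154.9, 290.9 and 450.9 CPM in KO, against 161.9, 299.7 and 352.0 CPM in WT. Its estimate was 0.05 ± 0.21 on the log2 scale (adjusted p = 0.967).

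Col3a1, whose homotrimers copolymerise with type I in compliant tissue, had 194.0 CPM in the lowest KO library, 408.3 at the median and 598.1 in the highest. In WT it had 190.4, 381.9 and 520.5 CPM. In 3 KO libraries Col3a1 lay above every WT library, in 2 of them by less than 1 CPM, and the other KO libraries fell within the WT range. Its estimate was 0.13 ± 0.25 on the log2 scale (95% interval -0.39 to 0.65, adjusted p = 0.917).

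Type V chains nucleate fibrils of type I. Col5a1 had 37.8, 60.7 and 85.9 CPM in KO, against 39.9, 62.0 and 76.1 CPM in WT, and stood at 0.05 ± 0.17 (adjusted p = 0.957). Col5a3 had 35.98, 52.5 and 59.0 CPM in KO, against 35.6, 54.6 and 65.4 CPM in WT, and stood at -0.04 ± 0.13 (adjusted p = 0.964). The genotypes overlapped in both genes. The remaining tested fibrillar genes apart from Col24a1 were Col5a2, Col11a1, Col11a2 and Col27a1, with log2 fold changes from -0.01 to 0.08.

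Col24a1 encodes a minor fibrillar collagen known mainly from bone. It had 6.98 CPM in the lowest, 11.4 at the median and 17.6 in the highest KO library, against 5.14, 8.60 and 11.3 CPM in WT. In 4 KO libraries it was above every WT library, and 7 of 8 KO libraries exceeded the WT mean. Its estimate was 0.42 ± 0.18 on the log2 scale (95% interval 0.05 to 0.80), with an unadjusted p of 0.0291 and an adjusted p of 0.454. The unadjusted background in that direction was 4.02% of tested genes. Over the alternatives the adjusted p of Col24a1 ran from 0.28 to 0.645 and its log2 fold change stayed above 0 in all 27. Its libraries were ordered unlike those of Col1a1. In KO library 7, the lowest of all 16 for Col1a1, it had 13.9 CPM, and in WT library 8, the lowest WT library for Col1a1, it had 11.3 CPM, the highest of WT.

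**Figure D3:**
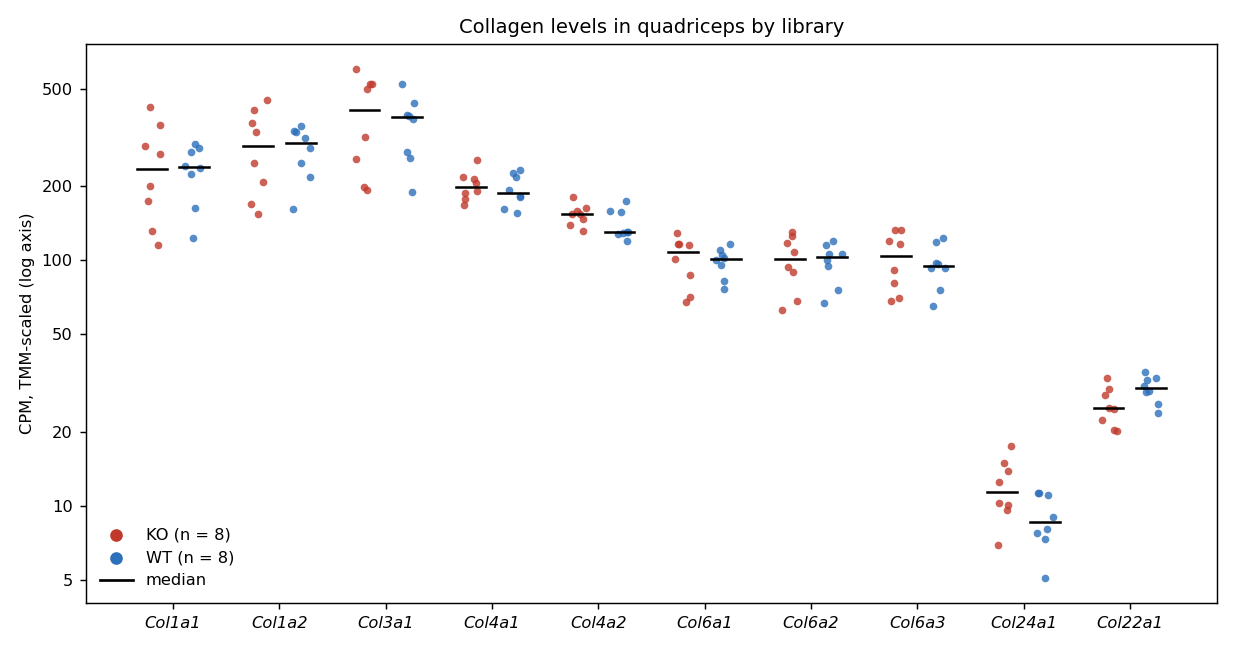
TMM-scaled CPM on a log axis for 10 collagen genes, with each point a library (8 KO in red on the left, 8 WT in blue on the right) and black bars at the medians. The genotypes overlap in every gene. Col1a1 spans 115.3 to 419.0 CPM among KO libraries and 122.9 to 297.0 CPM among WT libraries, while Col4a2 stays at 131.6 to 181.7 CPM among KO libraries and 120.3 to 175.1 CPM among WT libraries.

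The main basement membrane chains were among the steadiest collagens. Col4a1, the α1 chain of the type IV network found around every muscle fibre, had 168.4 CPM in the lowest, 199.4 at the median and 255.4 in the highest KO library, against 156.1, 188.1 and 234.1 CPM in WT. Its estimate was 0.06 ± 0.09 on the log2 scale (95% interval -0.14 to 0.26, adjusted p = 0.895). Col4a2, its partner chain, had 131.6, 154.6 and 181.7 CPM in KO, against 120.3, 130.1 and 175.1 CPM in WT. For Col4a2, 6 of 8 KO libraries exceeded the WT mean, all 8 exceeded the WT median, and 5 WT libraries lay below every KO library. The estimate was 0.12 ± 0.08 on the log2 scale (95% interval -0.04 to 0.29, unadjusted p = 0.134, adjusted p = 0.667). Without WT library 7, or with the level of RNAs lacking a poly(A) tail as a covariate, Col4a2 had log2 fold changes of 0.18 and 0.19, both with an unadjusted p under 0.05, and it passed no adjustment.

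Col4a5, an X-linked chain of the minor type IV networks, had 3.49, 5.13 and 7.04 CPM in KO, against 3.25, 4.89 and 6.77 CPM in WT. Its estimate was 0.14 ± 0.18 on the log2 scale (adjusted p = 0.854). Col4a3, Col4a4 and Col4a6 had log2 fold changes of 0.06, -0.05 and 0.06. Endothelial cells and pericytes also lay down basement membrane. Summed CPM of 10 endothelial markers was 371.3 to 430.4 in KO and 340.7 to 396.5 in WT, with 5 KO libraries above every WT library. Of these 10 markers 9 had a fold change above 0, against 51.8% of all tested genes, and 0 were called. An unadjusted p under 0.05 was reached by 3 (Cdh5, Tie1 and Emcn, all higher), or 30.0%, against 4.02% of all tested genes in that direction. Their part in the type IV values was not tested. In bulk tissue, a change in the number of cells of a type and a change in RNA per cell cannot be told apart.

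The beaded filament genes had similar levels in both genotypes. Col6a1 had 67.9 CPM in the lowest, 108.4 at the median and 129.0 in the highest KO library, against 76.4, 101.7 and 116.3 CPM in WT. Here 3 KO libraries lay above every WT library and 2 below every WT library. Its estimate was 0.03 ± 0.13 on the log2 scale (adjusted p = 0.974). Col6a2 had 62.6, 101.1 and 129.9 CPM in KO, against 67.3, 103.0 and 120.0 CPM in WT (log2 estimate 0.02 ± 0.15, adjusted p = 0.988). Col6a3 had 68.2, 104.3 and 132.5 CPM in KO, against 65.0, 95.03 and 123.1 CPM in WT (log2 estimate 0.09 ± 0.16, adjusted p = 0.907). Mutations in the genes of these 3 chains cause muscular dystrophy in humans. Col6a5 and Col6a6, chains that can take the place of the α3 chain, had log2 fold changes of 0.20 ± 0.26 and 0.10 ± 0.14. Col6a4 was at 0 counts in 11 of 16 libraries and had at most 2 counts.

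Among the other collagens, Col22a1 was the only gene with an unadjusted p under 0.05. It encodes a fibril-associated collagen placed at the junction of muscle and tendon. It had 20.2 CPM in the lowest, 25.0 at the median and 33.4 in the highest KO library, against 24.1, 30.3 and 35.2 CPM in WT. Only 1 of 8 KO libraries exceeded the WT mean, and 3 lay below every WT library. Its estimate was -0.24 ± 0.10 on the log2 scale (95% interval -0.45 to -0.02), with an unadjusted p of 0.0326 and an adjusted p of 0.465. The background of unadjusted p under 0.05 in that direction was 5.55% of tested genes. Without KO libraries 1, 3, 5 and 8, Col22a1 stood at -0.45 (adjusted p = 0.234, the lowest of its alternatives, which reached 0.649). Its fold change was below 0 in all 27 alternatives.

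The 2 unadjusted differences depended on single libraries. No collagen had an unadjusted p under 0.05 without KO library 7 or without WT library 4. Without KO library 1, KO library 2, WT library 1 or WT library 5 it was Col24a1 alone, and without KO library 4, KO library 5 or WT library 6 it was Col22a1 alone. Without KO library 6 there were 2, Col24a1 and Col20a1, and Col22a1 was not among them. Without WT library 7 there were 3, with Col4a2 added. Col24a1 kept an unadjusted p under 0.05 in 21 of 27 alternatives and Col22a1 in 20 of 27.

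Collagens XV and XVIII, the multiplexins, join basement membranes to the fibres around them, and mice without Col15a1 have a mild muscle disease. Col15a1 had 36.8, 49.3 and 62.2 CPM in KO, against 37.2, 48.8 and 59.1 CPM in WT (log2 estimate 0.05 ± 0.11, adjusted p = 0.939). Col18a1, the precursor of endostatin, had 12.2, 17.4 and 21.2 CPM in KO, against 13.2, 18.6 and 21.0 CPM in WT (log2 estimate -0.07 ± 0.11, adjusted p = 0.895). In both genes the genotypes overlapped, and 1 KO library was above every WT library. Below every WT library were 2 KO libraries for Col15a1 and 1 for Col18a1.

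Col7a1, the collagen of anchoring fibrils, had 20.1, 32.4 and 36.2 CPM in KO, against 16.1, 32.1 and 41.2 CPM in WT (log2 estimate -0.03 ± 0.15, adjusted p = 0.972). Col14a1, a fibril-associated collagen of tendon and perimysium, had 11.3, 21.8 and 28.3 CPM in KO, against 14.5, 20.3 and 22.6 CPM in WT. Its KO libraries spread on both sides of the WT range, with 3 above and 2 below every WT library (log2 estimate 0.14 ± 0.16, adjusted p = 0.84). Col16a1, another fibril-associated collagen, had 4.96, 6.94 and 10.6 CPM in KO, against 5.45, 7.37 and 9.59 CPM in WT (log2 estimate 0.04 ± 0.15, adjusted p = 0.97). The tested members not yet given were Col8a1, Col8a2, Col9a1, Col12a1, Col13a1, Col17a1, Col20a1, Col23a1 and Col28a1. Their log2 fold changes lay between -0.27 for Col9a1 and 0.20 for Col23a1, and 0 of them had an unadjusted p under 0.05. Col13a1, a transmembrane collagen of the neuromuscular junction, was at -0.20 with a 95% interval from -0.55 to 0.15.

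The untested collagens were near the floor. Col2a1, the main collagen of cartilage, had 4 to 17 counts in KO libraries. Of the WT libraries, library 3 had 161 counts, library 7 had 84 and the other 6 had 2 to 17. In CPM it ran from 0.130 to 0.659 in KO, against 2.91 in WT library 3, 2.25 in WT library 7 and 0.0915 to 0.560 in the other WT libraries. The same 2 WT libraries were highest for Acan, the cartilage proteoglycan aggrecan, which had 0 to 8 counts in KO, against 92 and 33 counts in WT libraries 3 and 7 and 0 to 4 in the other WT libraries. For Ibsp, the bone sialoprotein gene, KO libraries had 0 to 0.529 CPM, against 7.11 and 3.67 CPM in WT libraries 3 and 7 and 0 to 0.230 CPM in the other WT libraries. The genes Acan and Ibsp belong to the cartilage and bone list and are named after their values were seen. Of the 10 genes on that list, 4 (Acan, Ibsp, Cnmd and Alpl) had these libraries as their 2 highest. Sox9, the chondrocyte transcription factor, ran from 1.62 to 3.45 CPM in KO, against 3.53 CPM in WT library 3 and 2.09 CPM in WT library 7, and Runx2, the bone transcription factor, was highest in KO library 4 at 1.41 CPM. Bglap was highest in WT library 7 at 0.776 CPM, Sp7 in WT library 3 at 0.362 CPM and Matn3 in KO library 5 at 0.118 CPM. Of further collagens, Col9a1 was highest of all 16 in WT library 7, at 0.776 CPM. Col10a1 and Col11a2 were highest in WT library 3, at 0.272 and 9.20 CPM. Col11a1 was highest in KO library 8 at 4.78 CPM, and Col9a2 and Col9a3 were highest in neither of the 2 WT libraries. WT library 3 was also the highest WT library for Col1a2, Col6a1 and Col4a1, while WT library 7 was the lowest for Col5a3 and Col7a1. Matn1, a defining cartilage gene, had 0 counts in all 16 libraries. The part of cartilage or bone in the collagen values was not tested.

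All 36 tested collagens varied more between libraries of 1 genotype than the median gene. The SD of log2 CPM within genotype had a median of 0.39 over the tested fibrillar genes, 0.34 over beaded filament, 0.25 over other and 0.22 over basement membrane genes, against 0.15 over all tested genes. Col3a1 had an SD of 0.57, Col1a1 of 0.57 and Col1a2 of 0.50, above 98.2%, 98.1% and 97.4% of tested genes. Col4a1 and Col4a2 had SDs of 0.20 and 0.17, above 67.9% and 55.9% of tested genes. Fibrillar genes took between 0.0604% and 0.170% of counts in KO libraries and between 0.0574% and 0.136% in WT libraries, a range of 2.82 times in KO and 2.37 times in WT. For basement membrane genes the range was 1.51 times in KO and 1.57 times in WT. The SD was larger among KO than among WT libraries in 23 of 36 collagens, against 50.1% of all tested genes.

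The same libraries were high or low in many collagens at once. The counts that follow cover collagens only, with no share over all tested genes to set beside them. KO library 8 was the highest of all 16 for 15 of the 36 tested collagens. KO library 7 was the lowest for 11, KO library 1 for 9 and WT library 8 for 7. KO libraries 1 and 7 lay below the mean of all 16 libraries for 30 and 29 of the 36, as did WT libraries 1 and 8 for 33 and 30, although WT library 1 was the lowest for 0. KO libraries 3 and 8 lay above that mean for 32 each and KO library 4 for 30. Of the KO libraries with most RNA lacking a poly(A) tail, libraries 3 and 8 thus lay mostly above the mean. Libraries 1 and 5 lay below it for 30 and 24 of the 36. The part of RNAs lacking a poly(A) tail in the collagen values was not tested. The RNA integrity number was 8.7 in KO library 1, 8.4 in KO library 7, 8.6 in WT library 1 and 8.2 in WT library 8, the lowest of all. It was 8.8 in KO libraries 3 and 4 and 8.4 in KO library 8. The part of RNA integrity in the order of the libraries was not tested.

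**Figure D4:**
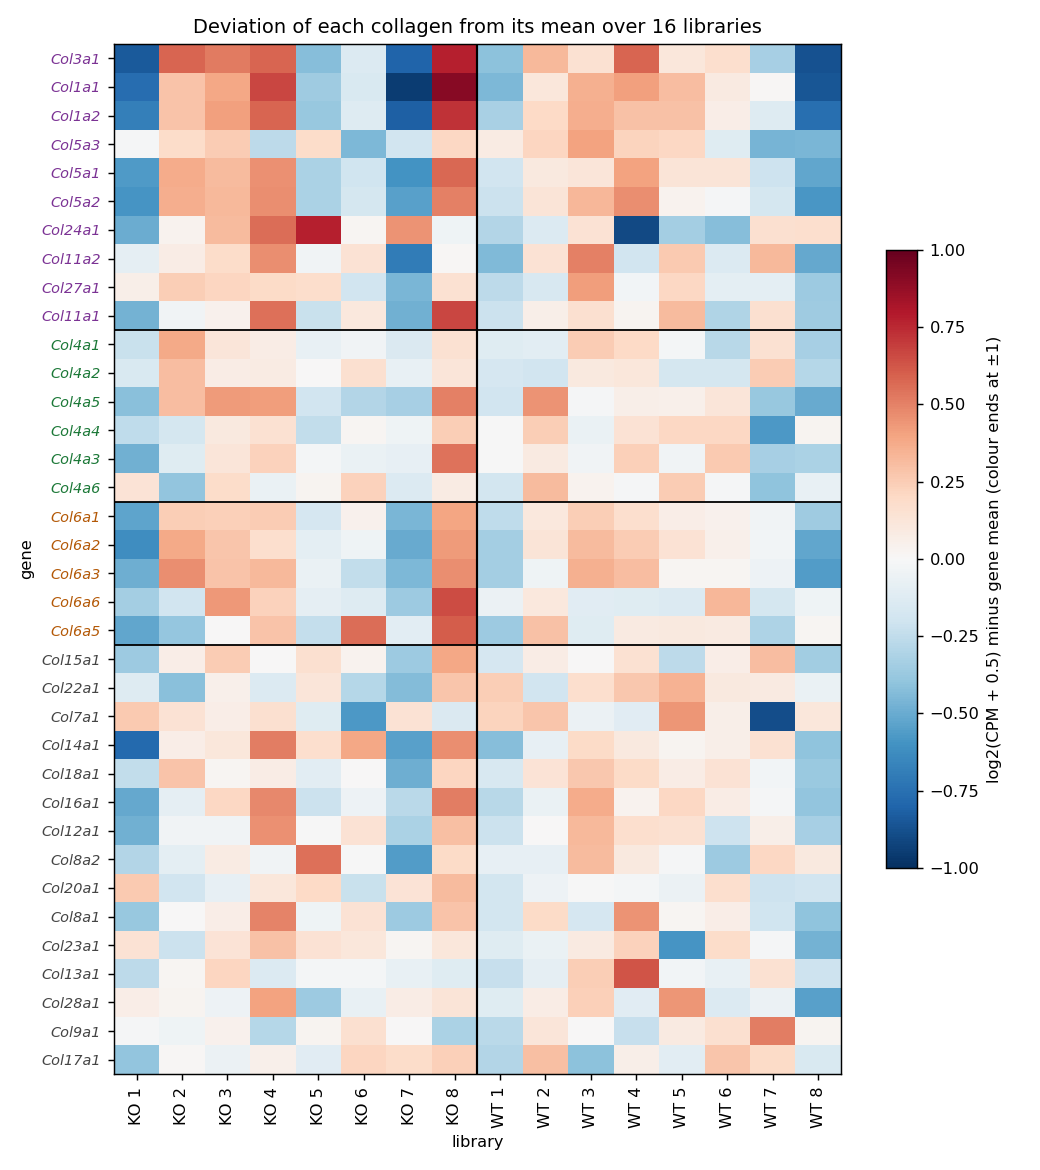
Deviation of each tested collagen (rows, grouped by class) from its mean over 16 libraries, as log2(CPM + 0.5), with 8 KO libraries on the left and 8 WT libraries on the right. Red is above and blue below the gene's mean. Columns KO 1, KO 7, WT 1 and WT 8 are mostly blue and columns KO 3, KO 4 and KO 8 mostly red, and the row of Col24a1 departs from the other fibrillar rows.

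Chains of 1 trimer kept steady proportions in both genotypes. The ratio of Col1a1 to Col1a2 per length was 1.56 ± 0.107 in KO, against 1.55 ± 0.107 in WT (SD over 8 libraries each), although Col1a1 itself ranged over 3.63 times in KO and 2.42 times in WT. Col5a1 to Col5a2 was 1.54 ± 0.0402 in KO and 1.54 ± 0.117 in WT. Col6a1 to Col6a2 was 1.94 ± 0.113 in KO and 1.93 ± 0.12 in WT, and Col6a3 to Col6a1 was 0.368 ± 0.035 in KO and 0.351 ± 0.029 in WT. Col3a1 to Col1a1, which belong to separate trimers, was 1.07 ± 0.114 in KO and 1.03 ± 0.136 in WT. Col4a1 to Col4a2 was 1.16 ± 0.0684 in KO and 1.22 ± 0.0898 in WT, where 1 of 8 KO libraries exceeded the WT median. For Col6a3 to Col6a1, 7 of 8 did. The genotypes overlapped in all 6 ratios. Absolute ratios depend on the lengths used: with the longest transcript as length, Col1a1 to Col1a2 was 0.742 in KO, against 0.737 in WT, so which of these chains is higher depends on the length.

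Covariation was measured over the 16 libraries as correlation of log2(CPM + 0.5), after subtracting each genotype's mean, for 12 pairs with Benjamini-Hochberg adjustment. All libraries share depth scaling between the genes of a pair. Col1a1 and Col1a2 had Pearson r = 0.99 and Spearman rho = 0.98 (permutation p = 1e-05, the smallest that 100000 permutations can give, adjusted p = 1.71e-05 for r). The pairs Col5a1 with Col5a2 and Col6a1 with Col6a2 both had r = 0.98, with rho of 0.94 and 0.96 and the same permutation p. Col1a1 and Col3a1, both fibrillar, had r = 0.95 (rho 0.93). Across classes, Col1a1 and Col6a1 had r = 0.96 (rho 0.93). Col6a1 and Col6a3 had r = 0.94 (rho 0.93). Without the 2 libraries farthest from the median of the first gene, r stayed between 0.91 and 0.99 in these pairs.

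Correlations of type IV with the other classes had lower values. Col4a1 and Col4a2 had r = 0.88 (rho 0.88, permutation p = 1e-05), but Col1a1 and Col4a1 had r = 0.71 (rho 0.74, permutation p = 0.00254, adjusted p = 0.00277). That correlation was 0.61 without KO library 7 and WT library 8. Col4a1 and Col6a1 had r = 0.74 (rho 0.80, permutation p = 0.00145, adjusted p = 0.00174) and 0.71 without KO library 2 and WT library 3. Differences between these correlations were not tested. Col1a1 also varied with Pdgfra, the receptor that marks fibro-adipogenic cells (r = 0.84, rho 0.82, permutation p = 5e-05, adjusted p = 7.5e-05), and with Tnmd, a marker of tendon cells (r = 0.81, rho 0.77, permutation p = 0.0001, adjusted p = 0.000133). Without KO library 7 and WT library 8 these were 0.77 and 0.78. Within genotype, r with Pdgfra was 0.86 in KO (exact permutation p = 0.00727) and 0.78 in WT (p = 0.0154), and r with Tnmd was 0.85 in KO (p = 0.0058) and 0.74 in WT (p = 0.0378), with 8 libraries each. Col4a1 and the endothelial gene Pecam1 had r = 0.41 (rho 0.32, permutation p = 0.118). Within genotype that r was -0.28 in KO (exact p = 0.497) and 0.91 in WT (exact p = 0.00355), and the difference between the genotypes was not tested.

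**Figure D5:**
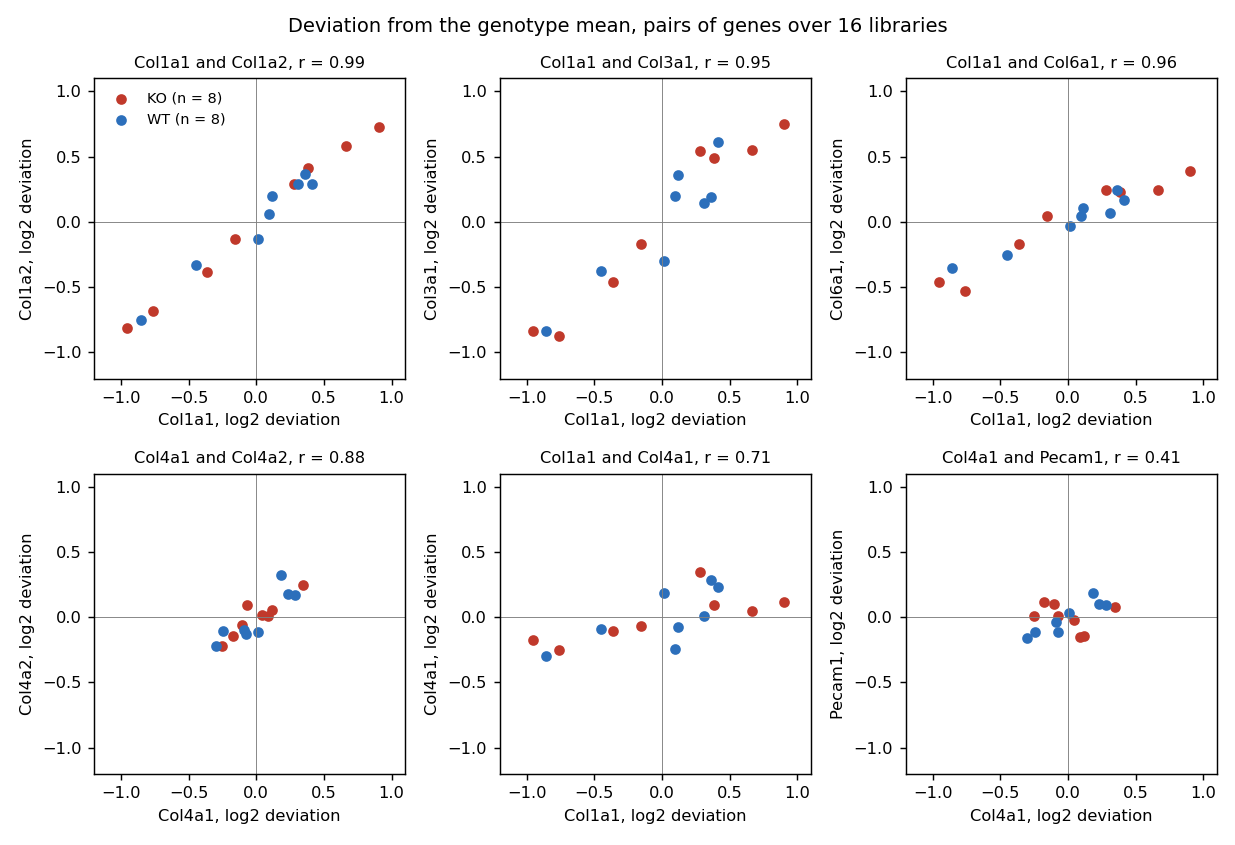
Deviation from the genotype mean on the log2(CPM + 0.5) scale for 6 pairs of genes, with each point a library (8 KO in red, 8 WT in blue) and Pearson r over 16 libraries above each panel. Points of Col1a1 with Col1a2, Col3a1 and Col6a1 lie near a line, Col4a1 with Col4a2 covers a narrower range, and Col4a1 with Pecam1 is scattered (r = 0.41).

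Genes that act on collagen also held no called member. Of 20 tested genes for modifying enzymes and chaperones, 0 passed the test and 1 reached an unadjusted p under 0.05, where 9.57% of all genes did. That gene was Tmem38b, an ion channel of the endoplasmic reticulum needed for collagen secretion in bone, at 50.5 ± 5.25 CPM in KO, against 56.1 ± 4.72 CPM in WT (SD, n = 8 each; log2 estimate -0.15 ± 0.07, adjusted p = 0.468). P4hb, the β subunit of prolyl 4-hydroxylase and the most abundant of them, was at 135.1 ± 9.07 CPM in KO, against 132.2 ± 7.46 CPM in WT. Of 12 tested genes for propeptide processing and crosslinking and 12 for breakdown and its inhibitors, 0 had an unadjusted p under 0.05. The most abundant were Pcolce, an enhancer of procollagen cleavage, at 36.2 ± 6.56 CPM in KO, against 37.4 ± 5.91 CPM in WT, and Timp3, an inhibitor of matrix proteases, at 160.6 ± 16.0 CPM in KO, against 148.0 ± 18.9 CPM in WT.

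Among 14 tested collagen receptors, 0 passed. An unadjusted p under 0.05 was found for 2, which is 14.3%, where 9.57% of all genes had one. Itgb1, the β1 integrin chain, stood at -0.11 ± 0.05 on the log2 scale (adjusted p = 0.472). Cspg4, a proteoglycan that binds type VI collagen and also marks pericytes, had 0.23 ± 0.08 (adjusted p = 0.334), with all 8 KO libraries above the WT mean. Of 22 partners of collagen fibrils 0 had an unadjusted p under 0.05, and Dcn, the small proteoglycan decorin, was at 334.4 ± 31.5 CPM in KO, against 347.3 ± 51.2 CPM in WT. The median log2 fold change of the 22 was 0.00.

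Of 15 basement membrane partners, 0 passed and 3 reached an unadjusted p under 0.05, where 9.57% of genes did. Lamc3, a laminin γ chain, was lower, at 1.61 ± 0.279 CPM in KO, against 2.12 ± 0.289 CPM in WT (SD, n = 8 each; log2 estimate -0.38 ± 0.12, adjusted p = 0.284), with 0 of 8 KO libraries above the WT mean. Agrn, which encodes agrin, the organiser of acetylcholine receptors, was higher, at 17.2 ± 1.48 CPM in KO, against 15.3 ± 1.31 CPM in WT (log2 estimate 0.17 ± 0.06, adjusted p = 0.336), with 8 of 8 above it. The third was Usp4, a ubiquitin protease and no matrix protein, at -0.09 ± 0.04 (adjusted p = 0.481). Hspg2, the proteoglycan perlecan and the most abundant of the list over all 16 libraries, was at 312.7 ± 29.0 CPM in KO, against 301.9 ± 15.9 CPM in WT.

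Of 25 tested genes of TGF-β signalling and matrix control, 0 passed and 3, or 12.0%, had an unadjusted p under 0.05, near the 9.57% of all tested genes. Smad3, a transcription factor that carries the TGF-β signal to collagen genes, had 49.0, 71.8 and 106.5 CPM in the lowest, median and highest KO library, against 78.6, 91.4 and 114.2 CPM in WT. Only 1 of 8 KO libraries exceeded the WT mean of Smad3 (log2 estimate -0.32 ± 0.12, adjusted p = 0.35). Ltbp3, a binding protein of latent TGF-β, had -0.10 ± 0.04 (adjusted p = 0.462), and Ltbp4, the most abundant of the list, had 0.09 ± 0.06 (adjusted p = 0.665). Tcf4, a helix-loop-helix transcription factor, had 0.21 ± 0.08 (adjusted p = 0.392), and 0.01 without KO libraries 1, 3, 5 and 8.

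Markers of the cells that make collagen were found at clear levels in both genotypes. Summed CPM of 10 fibro-adipogenic markers was 1148 to 1654 in KO and 1172 to 1699 in WT, and 0 of the 10 had an unadjusted p under 0.05. Most of that sum was Gsn, at 845.3 to 1232 CPM in KO and 792.7 to 1271 CPM in WT. Summed CPM of 10 tendon markers was 342.0 to 572.5 in KO and 368.0 to 613.0 in WT, with 9 of 10 fold changes above 0, against 51.8% of all tested genes, and 0 with an unadjusted p under 0.05. For 10 pericyte and smooth muscle markers it was 645.3 to 727.6 in KO and 652.9 to 702.6 in WT, with 5 KO libraries above every WT library. Of those 10, 4 had an unadjusted p under 0.05, all higher (Rgs5, Cspg4, Pdgfrb and Notch3), which is 40.0%, against 4.02% of all tested genes in that direction. The fold change was above 0 in 7 of the 10, against 51.8% of all tested genes, and below 0 in Abcc9, Cnn1 and Tagln. Abcc9, the most abundant of the list, was at 268.2 ± 13.3 CPM in KO, against 283.3 ± 17.7 CPM in WT. DESeq2 called Notch3 (log2 fold change 0.20, adjusted p = 0.00444). Macrophage markers summed to 137.2 to 322.5 CPM in KO and 134.2 to 349.3 CPM in WT. The sum of satellite cell markers was 181.0 to 216.0 CPM in KO and 186.4 to 213.1 CPM in WT. Most of it was Sgca, at 119.7 to 141.6 CPM in KO and 117.5 to 148.9 CPM in WT. The satellite cell sum therefore speaks mainly of Sgca and little of the other markers on that list. Of the 9 tested, 2, Pax7 and Fgfr4, had an unadjusted p under 0.05, both higher, which is 22.2%, against the same 4.02%. The fold change was above 0 in 6 of the 9, and Sdc4, Cdh15 and Sgca were below 0, at -0.11, -0.10 and -0.03 on the log2 scale. Schwann cell markers summed to 59.7 to 80.2 CPM in KO and 46.4 to 86.4 CPM in WT. Adipocyte markers reached 668.0 to 1886 CPM in KO and 585.4 to 1817 CPM in WT. Most of that sum was Car3, at 444.5 to 1706 CPM in KO and 423.0 to 1605 CPM in WT. The adipocyte sum likewise speaks mainly of Car3 and little of the other adipocyte markers. Of the macrophage, Schwann cell and adipocyte markers 0 had an unadjusted p under 0.05. Of 10 cartilage and bone markers, 3 were tested, with summed CPM of 15.3 to 20.7 in KO and 14.8 to 31.0 in WT over all 10. With edgeR 0 markers passed in any of these lists, with limma likewise 0, and with DESeq2 1, Notch3. In the lists of genes that act on collagen, 0 passed with any of these 3 tools. The part of cell composition in the collagen values was not tested.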

How the data were processed

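RNA from 16 quadriceps samples was sequenced as 52-bp paired ends after poly(A) selection, per the labels' protocols. The submitters' processing notes name bcl2fastq 4.0.3, STAR, Salmon and GRCm38. Neither the annotation release nor whether counting used strand is given there. The authors deposited Salmon's estimated counts, merged over the transcripts of a gene, of which 11.1% are not whole. They were rounded here before any count model.

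Rows were matched to the collagen pattern by symbol, and all 44 identifiers matched GENCODE vM21, which gave coordinates and lengths. The members, classes and lists were chosen with earlier results of these data known. All genes were fitted together with edgeR 4.0.16 (R 4.3.3), with TMM, the default low-count filter (13792 genes left, 0.0705% of counts removed) and no covariate. CPM were computed here. The alternatives changed the normalization, the filter or the covariates, used DESeq2 1.42.0 or limma 3.58.1, or left out each library in turn; others took the longest transcript as length and, chosen after seeing the data, 2 settings for RNAs that lack a poly(A) tail. Correlations used numpy 2.4.6 and, for ranks, pandas 2.3.3. The gene test was tested on simulated data.

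Named collagens were the 5 fibrillar, 3 Col4a, 3 Col6a and 6 other genes with the highest level per length and any with an unadjusted p under 0.05. Named list genes were up to 3 per list with the lowest unadjusted p under 0.05 and the most abundant member. Myh4 and Ckm were added as checks of the tissue. Markers in pairs were chosen with the pairs. Other markers named from the fibro-adipogenic, endothelial, pericyte, satellite cell, adipocyte and cartilage lists were chosen after their values were seen. Libraries of a genotype differed by more than sampling noise (chi-square per degree of freedom at least 8.09 in KO and 9.42 in WT over genes with at least 20 counts) and were kept apart. Genes that share exon bases with an antisense gene cannot be fully separated without a strand setting.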

Additional observations from a re-analysis of the deposited data

Results flagged for a closer look

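The ratio of Col6a3 to Col6a1 per length had 1 KO library apart from the other 7. KO library 6 was at 0.292, while the KO median was 0.373 and the highest KO library 0.417; WT ran from 0.312 to 0.396. The gap between this library and its nearest neighbour, divided by the range of the group, was 0.552, above Dixon's 95% critical value for 8 samples. Of 58 groups of 8 libraries examined this was the 1 found, and chance alone gives about 1 in 20 groups.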

How the results depend on the processing

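No collagen was called in any of the 27 alternative fits, and of 33 named genes 0 passed in any of them. Over all genes, 6 genes were called, against 96 with DESeq2, 3 with no low-count filter, 2 with RLE normalization, 2 with total counts only, 2 with the carry-over covariate (the level of RNAs without a poly(A) tail), 2 without KO libraries 1, 3, 5 and 8, and 2 to 8 with 1 library left out (2 without KO library 2, 3, 5 or 8 or WT library 3, 4, 5, 6 or 8, and 3 without KO library 1 or WT library 2); the cause was not tested. Correlations of same-numbered KO and WT libraries ran from -0.11 to 0.25, with 3 of 8 above 0.1, and 2 of 8 libraries matched their own number best, so the numbers were not taken to pair samples. With the replicate block 2 genes were called and 0 collagens.

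The sign of 10 named genes turned under at least 1 alternative, all with intervals that include 0. With the replicate block, Col1a1 had a log2 fold change of -0.013, Col1a2 of -0.015 and Col6a2 of -0.0072. With limma these were -6.9e-05 for Col1a2, -0.0049 for Col6a2, 0.0027 for Col7a1 and -0.014 for Col16a1. With the RIN as covariate Col6a2 had -0.0072, and without KO libraries 1, 3, 5 and 8 Col15a1 had -0.054. With 1 library left out, the ranges were -0.073 to 0.19 for Col1a1, -0.062 to 0.15 for Col1a2, -0.098 to 0.027 for Col5a3, -0.038 to 0.13 for Col5a1, -0.032 to 0.095 for Col6a1, -0.050 to 0.092 for Col6a2, -0.012 to 0.098 for Col15a1, -0.13 to 0.037 for Col7a1, -0.051 to 0.11 for Col16a1 and -0.089 to 0.015 for Dcn. The median of the fibrillar genes ran from -0.04 to 0.16, of the beaded filament genes from -0.02 to 0.15, of the other collagens from -0.04 to 0.08, and of the basement membrane genes from 0.03 to 0.11.

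With the longest transcript as length, the ratios were 0.742 in KO, against 0.737 in WT, for Col1a1 to Col1a2, 1.70 and 1.64 for Col3a1 to Col1a1, 1.07 and 1.07 for Col5a1 to Col5a2, 1.28 and 1.34 for Col4a1 to Col4a2, 1.22 and 1.21 for Col6a1 to Col6a2, and 0.408 and 0.389 for Col6a3 to Col6a1; the lengths set these shifts. With CPM from total counts, r of Col4a1 and Pecam1 was 0.57 (permutation p = 0.0217). Depth limits the 8 untested collagens, which had at most 161 counts in any library.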
